A study of Mus musculus with 3 samples.

Results

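The box H/ACA small nucleolar RNAs and the small Cajal body RNAs are short nuclear RNAs, and they were taken here as every gene whose symbol starts with Snora or Scarna. The rule found 51 genes, 42 Snora and 9 Scarna, of 55536 annotated genes. The cells were primary macrophages grown from the bone marrow of C57BL/6J mice. They were treated with Lipid A, the portion of bacterial lipopolysaccharide that activates TLR4, at 100 ng/ml for 10 min. RNA of the chromatin fraction, which stays with the chromatin when cells are fractionated, was depleted of ribosomal RNA and sequenced. There was 1 group of 3 libraries, named biological replicates 1, 2 and 3, which started from 1 µg, 250 ng and 500 ng of RNA, with a labelled size range of 250 to 400. The labels record no sex or age and give a single donor entry for the 3 libraries, so the spread between them may be partly technical. Replicate and starting amount cannot be told apart, no control library was part of the series, and no comparison between conditions was possible.

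H/ACA RNAs fold into hairpins separated by a box H and followed by an ACA box close to the 3′ end. Each binds the proteins dyskerin, Gar1, Nhp2 and Nop10, and most guide the conversion of chosen uridines in ribosomal RNA to pseudouridine. Small Cajal body RNAs do related work on spliceosomal RNAs in Cajal bodies. Some of them are H/ACA RNAs, some are C/D RNAs, which guide ribose methylation, and some combine both kinds. In mammals most of these RNAs are cut out of the introns of host genes, so their RNA in a chromatin fraction can come from the finished particle or from the host transcript still being made.

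The annotated sequences of 7 genes show what the rule gathered. Snora73a and Snora73b are shown because they are near copies on chromosome 4, Snora68, Snora26 and Snora31 because their values depended on length or quantification, Scarna13 as an abundant Cajal body RNA, and Scarna9 as the shortest gene. The sequences are GENCODE M21 transcripts in build mm10, written 5′ to 3′. Capitals mark ACA where it stood directly before the last 3 bases, and, in Snora genes, each ANANNA (the consensus of box H) in the middle of 3 equal parts of the RNA.
Snora73a: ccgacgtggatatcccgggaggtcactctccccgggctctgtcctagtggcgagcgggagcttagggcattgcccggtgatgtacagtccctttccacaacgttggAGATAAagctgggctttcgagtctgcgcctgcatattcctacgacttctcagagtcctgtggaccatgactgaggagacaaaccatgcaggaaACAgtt
Snora73b: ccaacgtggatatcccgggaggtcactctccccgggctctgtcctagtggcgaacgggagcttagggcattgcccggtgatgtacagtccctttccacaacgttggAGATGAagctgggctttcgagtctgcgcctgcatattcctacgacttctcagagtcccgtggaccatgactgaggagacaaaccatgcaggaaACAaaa
Snora68: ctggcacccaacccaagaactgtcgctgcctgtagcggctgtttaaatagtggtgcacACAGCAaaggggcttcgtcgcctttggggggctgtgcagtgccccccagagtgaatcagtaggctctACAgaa
Snora26: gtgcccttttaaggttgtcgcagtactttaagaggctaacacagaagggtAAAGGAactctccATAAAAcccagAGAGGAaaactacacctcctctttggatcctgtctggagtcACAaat
Snora31: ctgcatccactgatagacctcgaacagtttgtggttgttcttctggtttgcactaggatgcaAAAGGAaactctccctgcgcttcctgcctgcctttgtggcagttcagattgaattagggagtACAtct
Scarna13: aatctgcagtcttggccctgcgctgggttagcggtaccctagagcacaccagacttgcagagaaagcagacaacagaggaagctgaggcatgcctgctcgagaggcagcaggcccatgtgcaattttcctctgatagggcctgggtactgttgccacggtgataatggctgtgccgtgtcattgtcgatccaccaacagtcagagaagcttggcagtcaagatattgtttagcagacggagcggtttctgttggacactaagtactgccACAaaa
Scarna9: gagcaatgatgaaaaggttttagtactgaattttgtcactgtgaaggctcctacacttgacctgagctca

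Snora73a lies at chr4:132352775-132352979 and Snora73b at chr4:132352322-132352526, both on the minus strand. Snora68 lies at chr8:70895759-70895889 on the minus strand, Snora26 at chr5:74093530-74093650 on the plus strand and Snora31 at chr14:75847905-75848034 on the plus strand. Scarna13 lies at chr12:105031075-105031349 and Scarna9 at chr9:15326264-15326333, both on the minus strand. The H/ACA label was checked against the sequences on the transcript strand. ACA stood directly before the last 3 bases in 35 of 42 Snora genes (83.3%), in 2 of 9 Scarna genes, in 0 of 99 Snord genes, which are the C/D snoRNAs, and in 13.1% of the 1649 other transcripts of 120 to 149 bases. ANANNA matches, which overlapped one another in some RNAs, occurred in the middle part of 39 of 42 Snora genes (92.9%), 6 of 9 Scarna genes, 45.5% of Snord genes and 67.1% of those other transcripts. The Snora symbols thus went with the ACA position, whereas most Scarna genes lacked ACA at that exact position. In Scarna3a, Scarna3b, Snora17, Snora28 and the shorter Snora43 identifier, ACA stood directly before the last 2 bases and was not counted. A miss therefore does not show that the box is absent. The Scarna symbol names a location and not a box type.

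Annotated genes took 15698066 estimated counts in replicate 1, 16005795 in replicate 2 and 14386725 in replicate 3. A gene at 0 may have had as many as 3 counts, which is 0.191, 0.187 and 0.209 CPM (counts scaled to library size), for counting error only. All 10 macrophage markers examined, including Csf1r and Ctsb, had 10 or more counts in every library. None of 4 T cell, 4 B cell, 5 neutrophil and 4 fibroblast markers did. Cd3e, Cd3g, Lck, Ly6g and Elane were at 0 in every library, and the fibroblast markers summed to 0, 53 and 61 counts. Their part in any difference between libraries was not tested. In a bulk sample, fewer cells of a type and less RNA per cell cannot be told apart.

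By counts, a handful of long RNAs made up nearly all of the signal. The 51 genes held 0.260% ± 0.0731 of all counts (SD, n = 3). The 99 Snord genes, of which 93 were at 0 in every library, held 0.0738% ± 0.0193. The share was 0.345% in replicate 1, 0.215% in replicate 2 and 0.222% in replicate 3, so replicate 1 stood above the other libraries. Scarna10 alone carried 53.0% of the counts of the 51 genes, the first 4 genes 89.7% and the first 8 genes 99.1%. The 9 Scarna genes held 79.0% of the counts, and the 42 Snora genes 20.97%.

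Scarna10, whose human counterpart combines C/D and H/ACA parts and guides modification of a spliceosomal RNA, is 325 bases long and overlaps an exon of Ncapd2 (a condensin subunit) in part. It had 28733, 16665 and 18286 counts in replicates 1, 2 and 3. Replicate 1 was highest and replicate 2 lowest, also when scaled to library size. Scarna2, a C/D-type Cajal body RNA in human, is the longest gene at 414 bases and lay inside no other annotated gene on its strand. It had 10285, 7309 and 6086 counts. Scarna13, which in human is an H/ACA guide for spliceosomal RNAs, lies in an intron of the non-coding gene Snhg10. It had 2276, 1306 and 1095 counts, again highest in replicate 1. Scarna6, in an intron of the autophagy gene Atg16l1, had 1522, 724 and 771 counts. These 4 were the Scarna genes with 10 or more counts in every library, and all 4 were highest in replicate 1.

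The other 5 Scarna genes are 140 bases or shorter and had few or no counts. Scarna3a had 7, 1 and 1 counts and Scarna3b had 2.55, 0 and 0, with 85.7% identity between their sequences. Scarna8, Scarna9 and Scarna17 were at 0 in every library. Scarna9 (70 bases) and Scarna17 (79 bases) also had an effective length of 0 in every library, effective length being the number of positions at which a fragment can start.

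Among the Snora genes, the copies Snora73a and Snora73b led by counts. Their human counterpart acts in the cleavage of ribosomal RNA precursors and is not known mainly as a modification guide. Snora73a had 5625, 3604 and 2026 counts in replicates 1, 2 and 3. Snora73b had 3461, 3399 and 2285 counts. Both were lowest in replicate 3, and Snora73b differed less between replicates 1 and 2 than Snora73a did. The ratio of Snora73a to Snora73b was 1.63, 1.06 and 0.887, and in the second quantification described further on it was 1.67, 1.08 and 0.927.

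The RNAs are each 205 bases long and match at 198 positions (96.6%). Counted from 1 at the 5′ end, with the base of Snora73a first, they differ by G3A, G54A, A111G, T164C, G203A, T204A and T205A. The substitution A111G falls in the ANANNA match of both sequences shown, and 3 of the 7 differences are the last 3 bases. The standard deviation that the authors' table gives for assigning reads was 1.91 counts for Snora73a and 2.02 for Snora73b in replicate 1. Because the copies are so alike, their separate counts are uncertain all the same. Both lie inside Rcc1 and Snhg3 on the same strand, and Gm17300 overlaps them on the opposite strand. The use of strand in counting was not given in the sources used here.

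Snora74a, the mouse form of a long H/ACA RNA, had 1539, 923 and 921 counts. Snora68, whose human counterpart is an H/ACA guide for ribosomal RNA, had 275, 116 and 124 counts. Both were highest in replicate 1 and, once scaled to library size, lowest in replicate 2. No other Snora gene had a mean above 42.0 counts, the mean of Snora26.

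**Figure D1:**
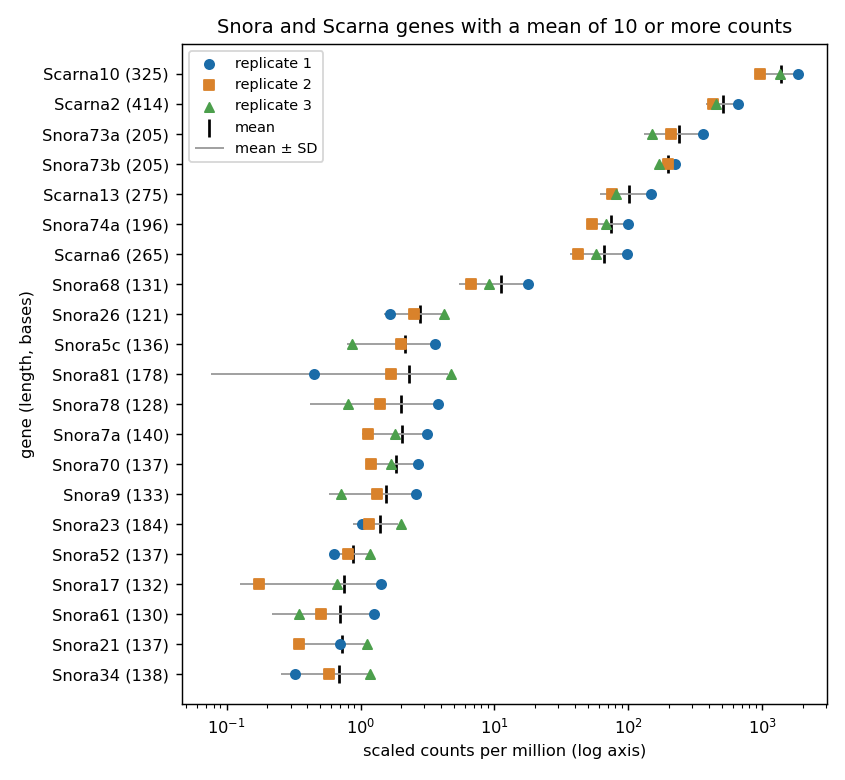
TMM-scaled CPM (horizontal log axis) of the 21 genes with a mean of 10 or more counts, ordered by mean count, with annotated length in bases in brackets. Coloured points are the 3 libraries, the black tick is the mean and the grey line the mean ± SD (n = 3). Scarna10 averaged 1390 CPM and Snora34 0.695 CPM, and replicate 1 was the highest library for 15 of the genes.

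Length divided the family cleanly, with no gene between 149 and 178 bases. The 9 genes of 178 bases or more held 98.9% of the family's counts and the 42 genes of 149 bases or fewer 1.12%. At least 10 counts in every library were found for 8 of the 9 longer genes (88.9%), against 177 of 6195 other annotated genes of 178 to 414 bases (2.86%). The same was true of 5 of the 39 genes of 127 to 149 bases (12.8%), against 25 of 1111 other annotated genes of that length (2.25%). In all, 14 of the 51 genes reached this level (27.5%), against 4 of 99 Snord genes (4.04%) and 26.9% of all annotated genes.

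TPM, which divides counts by effective length, gave another picture. The 51 genes held 4.70% ± 1.72 of all TPM (SD, n = 3), with 6.64%, 4.13% and 3.34% in replicates 1, 2 and 3, and the Snord genes held 11.95% ± 3.998. The Snora and Scarna genes thus exceeded the Snord genes by counts and were below them by TPM in the gene table. The Snord shares there rest on 6 genes. The other 93 of the 99 Snord genes (93.9%) were at 0 in every library, against 23.5% of the 51 genes. Median length was 133 bases for the 51 genes and 84 for the Snord genes, so the families are not compared at like length. In the second quantification, the TPM shares were 1.85% ± 0.665 and 2.15% ± 0.953, and in replicate 1 the order was the other way, with 2.62% for the 51 genes and 1.23% for the Snord genes. The 42 short genes, with 1.12% of the family's counts, held 25.6% of its TPM, and the Scarna genes fell to 35.2% by TPM, against 79.0% by counts.

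These RNAs were short beside the fragments. In genes over 2000 bases, effective length was shorter than annotated length by a median of 205.8, 238.4 and 225.5 bases in replicates 1, 2 and 3, more than the whole length of most of these RNAs. The 39 genes of 127 to 149 bases were given effective lengths of 1.55 to 6.07, 1.30 to 4.82 and 1.94 to 6.46 bases. In replicate 1, 1 count was therefore worth 41.7 TPM for Snora78, 33.1 TPM for Snora68, 2.24 TPM for Snora73a and 0.335 TPM for Scarna2. The median TPM per CPM (by total counts) was 351 (263 to 618) in the 11 short genes with a mean of 10 or more counts and an effective length above 0 in every library, and 34.5 (4.92 to 57.5) in the 9 longer genes, against 0.341 in the 8476 genes over 2000 bases. Over these 20 genes, Spearman's rho was -0.998 between length and TPM per CPM and 0.851 between mean count and mean TPM, as descriptions across genes that share 3 libraries.

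**Figure D2:**
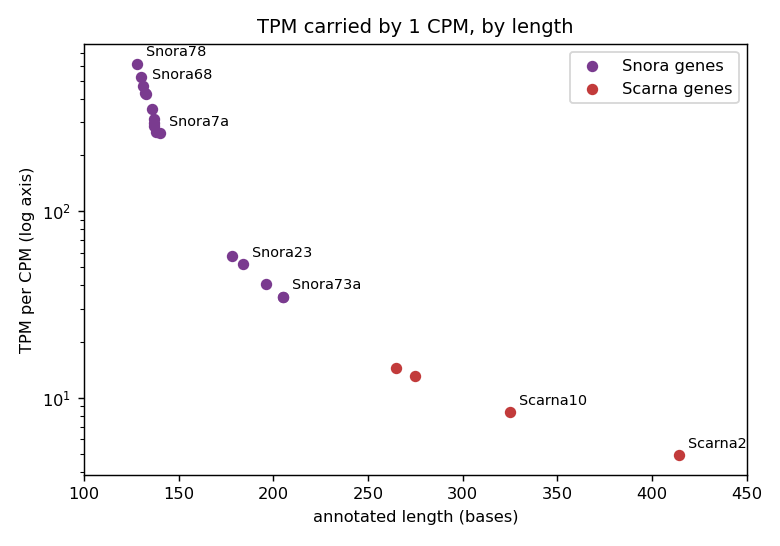
Mean TPM per mean CPM by total counts (vertical log axis) against annotated length in bases for the 20 genes with a mean of 10 or more counts and an effective length above 0 in every library, with Snora genes in purple and Scarna genes in red. One CPM carried 618 TPM for Snora78 and 4.92 TPM for Scarna2. Snora26 is not drawn, since its effective length was 0 in replicates 1 and 2.

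The first 3 ranks by TPM were Scarna10, Snora73a and Snora73b. Scarna10 had 16060, 9108 and 9499 TPM in replicates 1, 2 and 3. Snora73a had 12624, 8440 and 4159 TPM. Snora73b had 7768, 7960 and 4691 TPM. The next gene was Snora68, which was rank 8 by count and rank 4 by TPM, with 9077, 3661 and 2803 TPM. Its replicate 1 value was far above the others, as in the counts. Snora74a had 4147, 2592 and 2243 TPM, and Scarna2, rank 2 by count, was rank 6 by TPM with 3448, 2263 and 1844.

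Snora78, on 128 bases in an intron of Snhg9, rested its 2463, 950 and 306 TPM on 59, 24 and 11 counts, and Rps2 overlaps it on the opposite strand. Snora5c, which overlaps an exon of Tbrg4 in part, had 55.5, 34.7 and 11.6 counts and 1301, 791 and 195 TPM. Snora9, in Snhg15, had 40.5, 22.7 and 9.71 counts and 1160, 626 and 194 TPM. In these 3 genes both measures were highest in replicate 1 and lowest in replicate 3. Snora26, within an exon of a transcript of the non-coding gene Dancr, had 25.96, 42.97 and 56.96 counts but was listed at 0, 0 and 2840 TPM. Its effective length was 0, 0 and 1.17 bases, so its TPM of 0 in replicates 1 and 2 went with counts above 0, and no mean TPM is given for it.

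A second table per library, in which the authors derived estimated counts from the reads and a transcript index, gave the short genes more counts. Its annotated genes took 23952474, 28155711 and 24946455 counts in replicates 1, 2 and 3, more than in the gene table. The counts compared below are not scaled to these totals. As a mean share of all counts, the 42 short genes rose from 0.00296% to 0.00699%, and the 9 longer genes fell from 0.257% to 0.179%. There, 33 of the 51 genes had 10 or more counts in every library (64.7%), against 25 of 99 Snord genes (25.3%) and 41.9% of all annotated genes. Unscaled mean counts were higher than in the gene table for 45 of the 51 genes and lower for 5. The 45 include the longer Snora16a identifier, whose mean in the second table was only 3.8e-09. The same numbers were not computed over all annotated genes, so this is no result particular to the family. The ratio of the second table to the gene table was 1.10 to 4.60 with a median of 1.16 in the 9 longer genes, and 1.28 to 5.95 with a median of 2.15 in the 12 short genes with a mean of 10 or more counts in the gene table.

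The difference between the tables was also set beside the place in the host. The 17 short genes in an intron of their host summed to a mean of 57.5 counts in the gene table and 674 in the second table. The 17 short genes within an exon of a host transcript summed to 342 and 760. By the second quantification, 11 of the 17 intronic genes had 10 or more counts in every library, against 1 in the gene table. The numbers were 8 and 4 for the 17 genes within exons. The 5 short genes with no host summed to 21 counts in the gene table and 238 in the second table, and 4 of them had 10 or more counts in every library of the second table, against 0 in the gene table.

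By ratio, the disagreement was widest in genes that the gene table left near 0. Snora2b, which overlaps an exon of Kansl2 in part, had 1, 0 and 0 counts in the gene table and 56, 55.9 and 38 in the second. Snora31, in an intron of Tpt1, had 0, 1 and 0 counts in the gene table and 102, 189 and 116 in the second. Snora30, in an intron of Srcap, had 0, 2 and 0 counts in the gene table and 76, 93 and 89 in the second. Scarna17 had 94, 74 and 110 counts in the second table and Scarna9 had 27, 105 and 82, with 0 throughout the gene table. Counts of these 5 genes were well above 0 in all 3 libraries of the second table, so a count at or near 0 in the gene table does not show that the RNA was absent. Snora31, Snora30 and Scarna9 lie in introns of their hosts. Whether their counts came from the finished RNA or from the host transcript was not tested. Snora7a, in the ribosomal protein gene Rpl32, had 48.7, 19.7 and 24.6 counts in the gene table, highest in replicate 1, and 140, 160 and 253 in the second, highest in replicate 3.

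Of 12 genes at 0 in every library of the gene table (23.5% of the 51), 4 had 10 or more counts in every library of the second table. They were Scarna9, Scarna17, Snora41 and Snora36b. Among all 55536 annotated genes, 30695 (55.3%) were at 0 in every library of the gene table. Of those, 4015 had 10 or more counts in every library of the second table, as did 19 of the 93 Snord genes at 0. Snora35 alone was at exactly 0 in all libraries of both tables. It lies in an intron of Htr2c, a serotonin receptor gene known for its expression in brain, and Htr2c also had no counts. The symbols Snora43 and Snora16a each stand for 2 overlapping gene identifiers that share their sequence but for 12 bases and 1 base at the ends, so the split of counts between the identifiers is uncertain. The longer Snora43 had 1.37, 4.46 and 1.67 counts in the gene table and 44, 58 and 47 in the second. The shorter had 4.63, 1.54 and 0.33 in the gene table and 0 in the second.

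**Figure D3:**
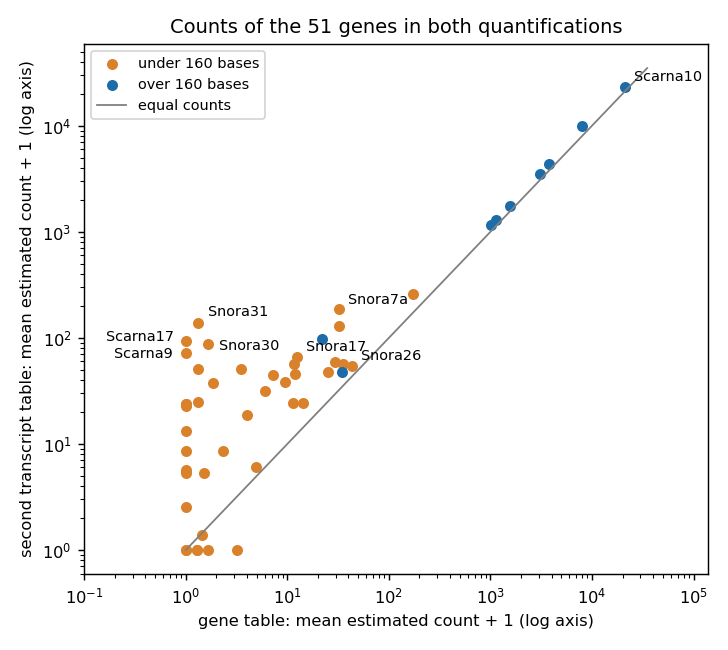
Mean estimated count + 1 over 3 libraries for all 51 genes in the second transcript table (vertical log axis) against the gene table (horizontal log axis), with genes under 160 bases in orange and over 160 bases in blue. The line marks equal counts. Scarna10 and the other abundant long genes sit close to the line, and Snora31, Snora30, Scarna17 and Scarna9 lie far above it at the left edge.

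Host genes were found from the annotation for 45 of the 51 genes, in 40 host genes on the same strand when 1 host is taken per RNA. In 21 the RNA lay in an intron, in 19 within an exon of a host transcript and in 5 partly over one. The remaining 6 genes, Scarna2, Scarna17, Snora17, Snora57 and both Snora43 identifiers, had no host. Ribosomal protein genes hosted 11 of the RNAs, and 6 Snhg genes (small nucleolar RNA host genes) contained 10, Snhg3 with both Snora73 genes among them, of which 4 (both Snora16a identifiers, Snora44 and Snora61) lie in Snhg12. Reads from an exon that contains the RNA may belong to either gene.

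Counts per base were set against those over the exons of the host for the 19 genes with a host and a mean of 10 or more counts. The RNA was denser than its host in 14 of the 19, with a median log2 ratio of 1.95. The log2 ratio was 10.09 for Scarna10 over Ncapd2, 9.81 for Scarna13 over Snhg10, 9.47 for Snora73a and 9.17 for Snora73b over Rcc1, and 6.96 for Snora74a. For the Snora73 genes, Rcc1 was taken before Snhg3 because it is protein-coding, and the density over Snhg3 was not computed. The log2 ratio was 4.01 for Snora26 over Dancr and 3.91 for Scarna6 over Atg16l1. At the other end, Snora81 was less dense than Eif4a2, a translation initiation helicase, by a log2 ratio of -2.71. The longer genes were found at both ends of this range, and the short Snora78 stood at 4.49 over Snhg9. Snhg10 averaged 3.33 counts and Snhg9 2, close to the 3-count limit, so the ratios of Scarna13 and Snora78 are uncertain. Both genes count among the 14.

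The libraries differed in these genes by more than counting error, and replicate 1 was the highest library for most. The coefficient of variation (SD over mean of scaled CPM) of the 21 genes with a mean of 10 or more counts had a median of 0.463, from 0.138 for Snora73b to 0.967 for Snora81, where counting error alone would give a median of 0.173. The median over all 15871 genes past the same filter was 0.148, where counting error alone would give 0.0749, since their counts were higher. Without replicate 1 the median of the 21 genes was 0.266. Among the 8 genes with a mean of 50 or more counts, the most variable were Snora68 (0.515), Snora73a (0.456) and Scarna6 (0.441), and the least variable Snora73b (0.138), Scarna2 (0.255) and Snora74a (0.316).

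Each library was compared with the mean of the other 2 as log2 of scaled CPM plus 0.5, which understates the ratio of low genes. A single library has no replicate check, so no test was made. The median of the 21 genes was 0.71 in replicate 1, -0.51 in replicate 2 and -0.19 in replicate 3 (0.25, -0.25 and -0.15 over all genes of the family with a count in some library), and that of all 15871 genes lay within 0.03 of 0 in each library. Scaling by total counts alone moved the all-gene median to 0.12 in replicate 2 and -0.12 in replicate 3. Without replicate 1, the replicate 3 median was 0.38 and that of replicate 2 -0.38. In the second table the replicate 1 median was 0.02 and the replicate 3 median 0.17. These medians cover the larger set of family genes that passed the mean-count filter in that table, not the 21 genes. Quantification and gene set changed together, so the shift cannot be assigned to quantification alone. Of the 21 genes, 12 were highest in replicate 1 in both tables, 6 were highest in replicate 3 in both, and none was highest in replicate 2 in either. Among all genes, 36.9%, 32.7% and 30.5% were highest in replicates 1, 2 and 3.

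At least 2-fold higher values in replicate 1 were seen for 6 of the 21 genes (28.6%), namely Snora17, Snora5c, Snora68, Snora73a, Snora78 and Snora9, against 1.02% of all genes. One gene, Snora81, was at least 2-fold lower in replicate 1 (4.76%), against 1.19% of all genes. In replicate 2, 0 genes were at least 2-fold higher, against 1.16%, and 1 gene, Snora17, was at least 2-fold lower, against 0.485%. In replicate 3, 1 gene, Snora81, was at least 2-fold higher, against 0.378%, and 3 genes, Snora5c, Snora78 and Snora9, were at least 2-fold lower, against 1.13%. The low-count genes in these lists also have the larger counting error. Of the 10 macrophage markers, 9 also had their highest scaled CPM in replicate 1, and their counts summed to 60752, 49429 and 40013, mostly from Ctsb and Csf1r. Their part in the result was not tested.

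A smaller set of genes ran the other way. Snora81 had 7.01, 28.9 and 64.5 counts in replicates 1, 2 and 3, and 0.819, 26.3 and 114 in the second table. The standard deviation for assigning its reads was 3.13, 3.38 and 3.37 counts in the gene table, large beside its replicate 1 count. Snora81 lies within an exon of an Eif4a2 transcript annotated as retained intron, so its reads may belong to either gene. Snora23, in an intron of the importin gene Ipo7, had 16, 20 and 27 counts, and 45, 91 and 154 in the second table. Replicate 3 was the highest library in both tables for both genes, and for Snora26, Snora52, Snora21 and Snora34. Snora28, in the translation factor gene Eif5 and below the filter, had 0, 3.74 and 15.0 counts in the gene table.

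The order of the libraries was set beside the density over the host, as a description with no test. Of the 9 genes with over 8 times the density of the host, 8 were highest in replicate 1 and 1, Snora26, in replicate 3. Scarna13 and Snora78 are among these 9, although their hosts averaged only 3.33 and 2 counts. Of the other 10, 5 were highest in replicate 1 and 5 in replicate 3. The cut at 8 times was not part of the analysis plan. Without a cut, Spearman's rho between density and library ratio over the 19 genes was 0.36 in replicate 1, -0.09 in replicate 2 and -0.41 in replicate 3. For the 18 host genes the median log2 ratio was 0.10 in replicate 1 (-0.64 to 0.57), -0.04 in replicate 2 (-0.53 to 1.06) and -0.15 in replicate 3 (-0.61 to 0.12). Scarna6 had 98.0, 42.1 and 57.0 scaled CPM in replicates 1, 2 and 3, whereas its host Atg16l1 had 149.8, 159.3 and 162.7. Snora81 had 0.451, 1.68 and 4.77 scaled CPM, and its host Eif4a2 had 424, 418 and 434. Atg16l1 and Eif4a2 were nearly level. Ncapd2, the host of Scarna10, was not, with 17.1, 36.5 and 17.4 scaled CPM in replicates 1, 2 and 3, against 1850, 969 and 1351 for Scarna10.

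**Figure D4:**
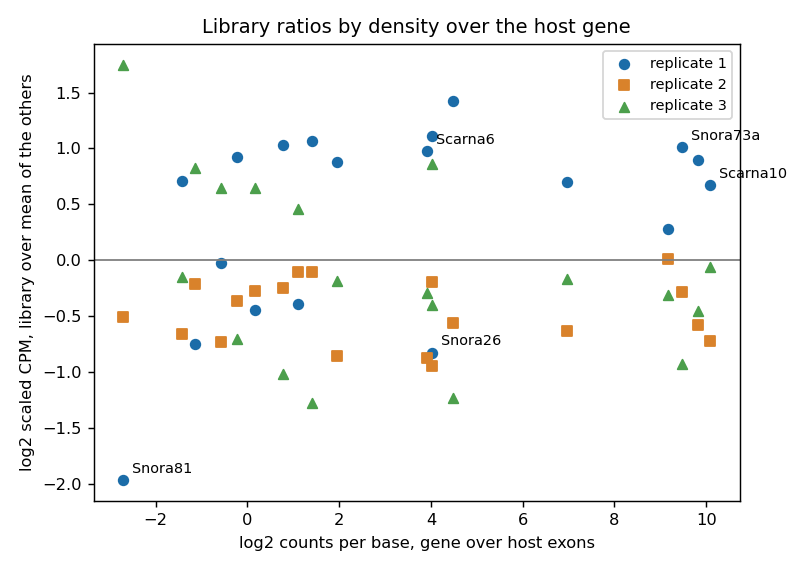
Log2 ratio of scaled CPM in each library over the mean of the others (vertical axis) against the log2 ratio of counts per base of the gene over the exons of its host (horizontal axis), for the 19 genes with a host and a mean of 10 or more counts. Each gene has 1 point per library, and names stand beside replicate 1. Snora81 is lowest in replicate 1 and highest in replicate 3 at the left, and Scarna10 and Snora73a are above 0 in replicate 1 at the right.

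The proteins that make and bind these RNAs were measured as their own transcripts. Of the 4 core proteins, 3 had 10 or more counts in every library. Dkc1, the pseudouridine synthase dyskerin, had 15.9, 16.5 and 13.2 TPM in replicates 1, 2 and 3. Gar1 averaged 6.51 TPM and Nhp2 3.12 TPM. Nop10 had 20, 13 and 1 counts, lowest in replicate 3. The 4 C/D core proteins, Fbl, Nop56, Nop58 and Snu13, ranged from 4.74 to 37.8 TPM. All 5 assembly factors (1.497 to 4.08 TPM), all 6 factors of 3′ end processing (11.3 to 54.2 TPM) and all 8 Cajal body factors (2.96 to 32.4 TPM) had 10 or more counts in every library. Among the last, Coil, the scaffold protein of the Cajal body, averaged 2.96 TPM and Wrap53, which carries RNAs with a CAB box to the Cajal body, 3.14 TPM. Terc, the telomerase RNA, which also ends in an H/ACA domain, had 17, 21 and 6 counts, and Tert, the telomerase protein, had 1, 5 and 4.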

How the data were processed

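Total RNA-seq was analysed from 3 chromatin-fraction libraries of 1 group. The authors deposited a gene table per library with estimated counts, TPM, effective lengths and a read-assignment standard deviation treated as a score, per the file headers, made from transcriptome alignments to mm10 with GENCODE M21, per the deposited readme files. They also deposited a second transcript table of estimated counts and TPM, derived from the reads and an index, here summed per gene. Programs, versions and strand handling: not given in the sources used here. Rows naming no annotated gene (26345) held 1.16%, 0.459% and 0.351% of counts in replicates 1, 2 and 3 and were left out. Scaled CPM used TMM factors (edgeR 4.0.16, R 4.3.3); DESeq2 1.42.0 size factors were an alternative. Library ratios used a pseudocount of 0.5 CPM and genes with a mean of 10 or more counts. The counts of each pair of libraries differed beyond sampling noise (chi-square per degree of freedom 14.3 to 33.5). A host was a gene whose body contained the RNA on its strand, per GENCODE M21. Sequences came from the GENCODE M21 transcripts, at most 300 bases each. The ratio computation was tested on simulated data. With 1 group, every result is a description. The genes, gene lists and naming rule (top ranks by count and TPM, extremes of variation, length and disagreement between tables) were chosen with earlier results of these data known, and genes added after their values were seen, such as Snora2b, Snora81, Snora23, Snora28, Snora35, Snora41 and Snora36b, fall outside that rule. One host gene and one marker gene are not reported here.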

Additional observations from a re-analysis of the deposited data

How the results depend on the processing

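Of the recomputed values, 56 kept their direction and moved by less than the spread between libraries (for numbers of genes, by less than 1.5 times), 16 moved by more and 2 reversed. The median log2 ratio of replicate 3 was -0.19 in the gene table and 0.17 in the second transcript table. The latter covers the larger set of genes with a mean of 10 or more counts in that table, so quantification and gene set changed together. With a library left out, the replicate 3 median ranged from -0.56 to 0.38, the positive value being without replicate 1. The median coefficient of variation ranged from 0.266 (without replicate 1) to 0.450 with a library left out and was 0.354 among genes with a mean of 50 or more counts. In the second table, genes with 10 or more counts in every library numbered 33, and the family held 0.186% of counts and 1.85% of TPM. The replicate 1 ratio there was 0.024 and the median TPM per CPM 40.6 (276.7 in the gene table), both over the larger set named above. The rank correlation of counts and TPM was 0.958 and the median log2 density over the host 1.01 in the second table. The number detected was 25 at 1 count, 26 at 1 TPM and 8 at 50 counts in every library. The share of TPM was 2.09% with annotated in place of effective length. The median log2 density over the host was 9.17 at a mean of 50 or more counts and 5.06 with effective length. The rank correlation was 0.959 with no filter. DESeq2 or total-count scaling, the other pseudocounts and filters, and the ratios within genes over or under 160 bases (chosen after seeing the data) changed no direction, but with no filter the ratio fell to 0.25 in replicate 1 and was -0.25 in replicate 2. The cause was not tested. No paired analysis was possible because there is 1 group. Short RNAs at or below the 3-count limit of each library cannot be ranked.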
